A study of Mus musculus with 6 samples.

Results

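The proteasome genes are those whose symbol begins with Psm, followed by a letter from a to f and a number. This symbol rule found 45 genes, read by 98 probe sets, among 18193 genes and 35041 probe sets with 1 annotated gene. The RNA was that of myospheres, spheres of cultured cells that started from muscle of the hind leg. The donor mice were Balb/c males, and their muscle cells had been enriched for the surface antigen Sca1. Per the labels they grew for 4 days in neurocult medium, whose additives were LIF, EGF, B27 and one spelled bf6f, and 2000000 cells at passage 1 gave the RNA. There was 1 group and no untreated or other comparison group: replicates 1, 2 and 3 were each hybridised to the Affymetrix chips MOE430B and MOE430A, which carry different probe sets. The labels do not say that the replicates were separate cultures, so their spread may be technical, and p-values measure only that spread.

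The proteasome is the protease that degrades proteins tagged with ubiquitin. Its core particle is a barrel of stacked rings of alpha and beta subunits, and the cutting sites lie inside it on the beta subunits Psmb5, Psmb6 and Psmb7. The regulatory particle caps the barrel: its ATPases (Psmc genes) unfold the substrate and thread it in, and its non-ATPase subunits (Psmd genes) bind, deubiquitinate and position it. Interferon gamma induces the alternative catalytic subunits Psmb8, Psmb9 and Psmb10, which replace Psmb5, Psmb6 and Psmb7 in the immunoproteasome and alter the peptides made for antigen presentation. Activators of the Psme family can take the place of the regulatory particle.

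Values are MAS5 signals, a linear array intensity. Each array was given a background limit, the 95th percentile of its probe sets for gene families of other tissues, such as odorant receptors. It lay at 2560.2 to 3266 on MOE430B and at 783 to 821 on MOE430A. To be called above the limit, a probe set had to pass it in replicates 1, 2 and 3 alike, and a gene needed 1 such probe set. Probe sets differ in how strongly they bind their transcript, so ratios to the limit do not rank subunits by amount of RNA. The 3' over 5' signal ratio of the Gapdh control averaged 13.8 ± 2.45 on MOE430A and 15.4 ± 1.40 on MOE430B (SD, n = 3). For the actin control it was 10.4 ± 1.62 and 11.1 ± 2.05 (SD, n = 3). Both chips thus read these controls far more strongly at the 3' end, and the part of this in the calls was not tested. Among cell type markers, 7 of 7 mesenchymal and 0 of 6 skeletal muscle genes were above the limit, against 36.1% of all measured genes. The muscle genes lay on both sides of it at their probe sets of highest ratio. Myod1, at 1074, 605 and 1062, passed it in replicates 1 and 3. Myog, at 730, 1332 and 1468, passed it in replicates 2 and 3. Acta1 passed it in replicate 2 and Ckm in replicate 3, while Pax7 and Myf5 stayed below it on every array.

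Of the 45 proteasome genes, 39 were above the limit, against 36.1% of all measured genes. Among all genes the share passing was 22.1% where a single probe set read the gene, 42.3% for a pair and 59.1% for 3 or more. Weighted to the numbers of probe sets that the proteasome genes carry, the share over all genes was 39.0%. The median ratio of signal to limit, at each gene's probe set with the highest ratio, was 4.41 for the proteasome genes and 0.748 for all measured genes. A stricter rule tested each probe set's log2 ratio to its limit against 0 with limma, one-sided, adjusted over all probe sets of both chips. It called 52 of the 98 proteasome probe sets, against 23.3% of all, and 37 of the 45 genes, against 32.4% of all. Psmc4 and Psmd9 were above the limit on every array by 1 probe set each but missed this test, with limma adjusted p of 0.0597 and 0.156. The 6 genes not above the limit were Psma8, Psmb9, Psmb11, Psmc3ip, Psmd7 and Psmf1.

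**Figure D1:**
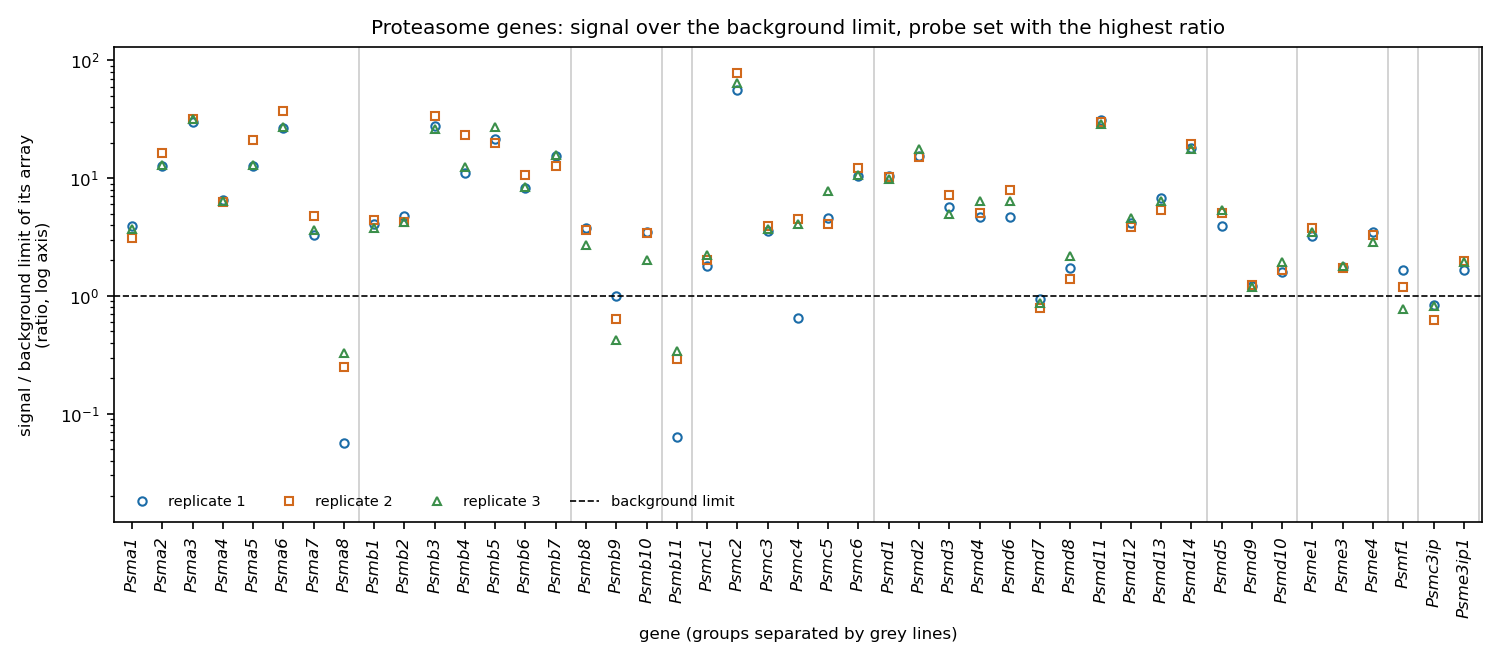
Ratio of MAS5 signal to the background limit of its array (log axis) for each proteasome gene, at the probe set with the highest geometric mean ratio. Each symbol is 1 array, the dashed line is the limit, and grey lines separate, left to right, core alpha, core beta, immunoproteasome, thymus, ATPase, non-ATPase, base chaperone, activator and inhibitor genes and the genes matched by symbol that are no subunit; Psmc4 and Psmf1 each have 1 array below the line and 2 above it.

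In the core particle 14 of 15 alpha and constitutive beta genes were above the limit, with a median ratio of 13.9. The alpha subunits form the outer rings and the gate of the barrel, and 7 of their 8 genes were above. Psma3 read 24505, 25083.5 and 25932 in replicates 1, 2 and 3, at 29.9 to 32.0 times the limit. Psma6 read 21841, 28915 and 22277 by an _x_at probe set, a kind whose probes may match other transcripts. Both lay far above the limit on every array. For Psma6 replicate 2 was the highest by this probe set but the lowest by its _at probe set, which read 5025, 3667 and 4399.8.

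Psma1 lay closest to the limit among the alpha genes that passed, with 3245, 2445 and 3014 on MOE430A (2901 ± 412, SD, n = 3). The exception was Psma8, an alpha subunit of the testis that takes the place of Psma7 in germ cells. Its only probe set read 45.8, 194 and 269, at most 0.327 of the limit. The other alpha genes, Psma2, Psma4, Psma5 and Psma7, had ratios between 3.86 and 15.1.

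All 7 constitutive beta genes were above the limit, and their median ratio was 14.6. Psmb5 carries the chymotrypsin-like site, which cuts after hydrophobic residues. It read 16623, 18797 and 17188 in replicates 1, 2 and 3 on MOE430A (17536 ± 1128, SD, n = 3), a log2 ratio to the limit of 4.44 ± 0.11 (SE, limma adjusted p = 2.36e-08). Psmb6, with the caspase-like site, read 6774, 8406 and 6929.8, a log2 ratio of 3.18 ± 0.11 (SE, limma adjusted p = 7.65e-08). Psmb7, with the trypsin-like site, read 12586, 9953 and 12979.5, a log2 ratio of 3.86 ± 0.10 (SE, limma adjusted p = 2.95e-08). All 3 catalytic genes were therefore more than 8 times above the limit on every array, and on MOE430A replicate 2 was the highest for Psmb5 and Psmb6 and the lowest for Psmb7.

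Psmb3, a structural beta subunit, had the highest ratio among the beta genes, with 22842.5, 26639.9 and 21433. The lowest ratios were those of Psmb1 and Psmb2, which are also structural. Psmb1 read 3344, 3462 and 3092, and Psmb2 read 3871, 3342 and 3499, so both stayed at least 3.76 times above the limit. Psmb4 had 2 probe sets, both above. Psmb11, the beta subunit of thymic cortical epithelium, has a probe set on MOE430B alone and read 209, 854 and 865, at most 0.338 of the limit.

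Of the interferon-inducible subunits, Psmb8 and Psmb10 were above the limit and Psmb9 was not. Psmb8 read 3116, 2871 and 2235 in replicates 1, 2 and 3, a log2 ratio of 1.75 ± 0.12 (SE, limma adjusted p = 6.22e-06). Psmb10 read 2864, 2694 and 1665, a log2 ratio of 1.54 ± 0.17 (SE, limma adjusted p = 9.24e-05). Psmb9 read 811, 496 and 346, and its ratios of 0.991, 0.633 and 0.421 left it below the limit on every array, close to it in replicate 1. The Psmb8 call rests on an _a_at probe set, and its other probe set, on MOE430B, read 1624, 2093 and 1291 and was not above. Immunoproteasome ratios, at 0.642 to 3.36, lay below the 9.08 to 22.6 of the 3 catalytic genes they replace. The 22.6 is that of Psmb5 on MOE430B, and on MOE430A its ratio was 21.7. As probe sets differ in affinity, this comparison does not measure the share of each particle.

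**Figure D2:**
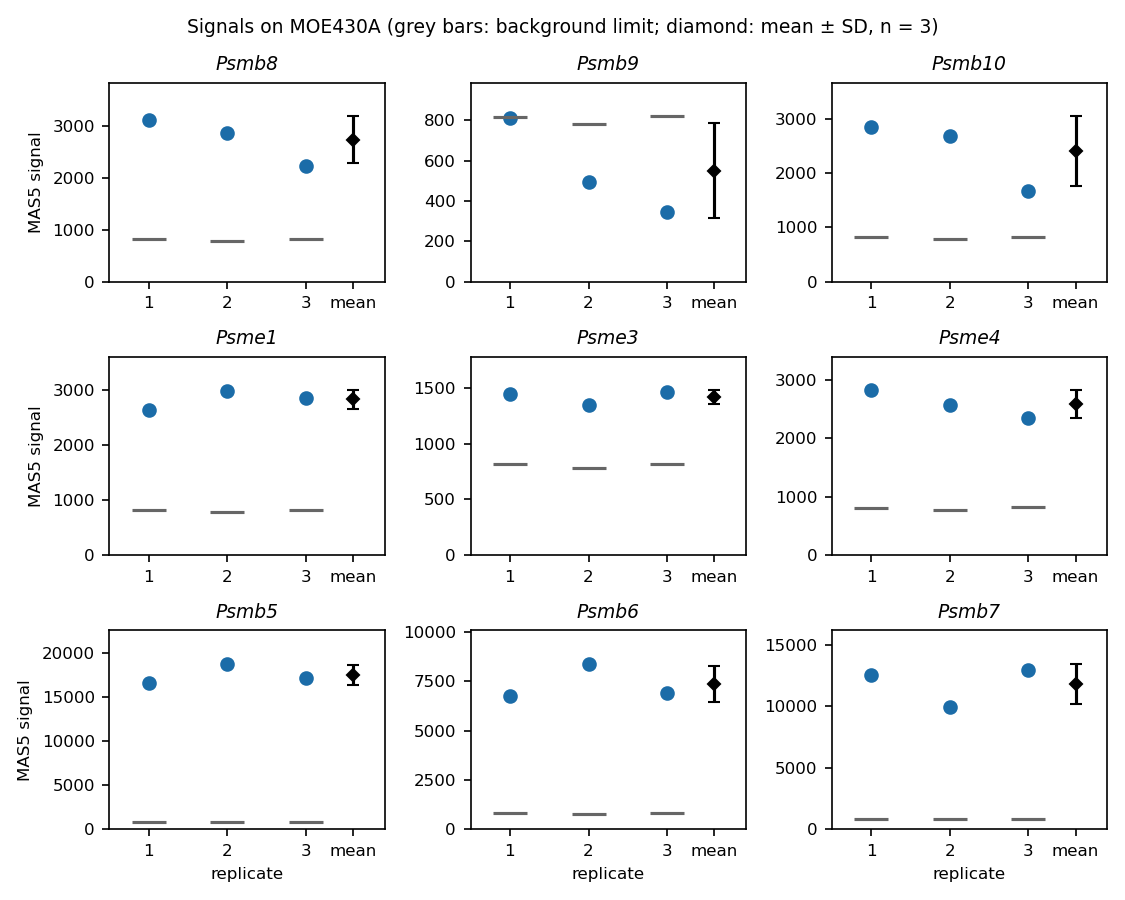
MAS5 signals on MOE430A by replicate (linear axes that differ between panels) for the inducible subunits Psmb8, Psmb9 and Psmb10, the activators Psme1, Psme3 and Psme4, and the catalytic subunits Psmb5, Psmb6 and Psmb7. Grey bars are the background limit of each array and diamonds the mean ± SD (n = 3); Psmb9 lies below the limit on all 3 arrays and the other 8 genes lie above it.

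The 3 inducible genes shared an order over the replicates, a pattern singled out after their values were seen and not tested. All had their highest signal in replicate 1 and their lowest in replicate 3, an order held by 15.5% of the genes above the limit on MOE430A and by 0 of the 32 core and regulatory genes. The activator Psme4 and the inhibitor Psmf1 had it too, 5 of the 45 genes in all, and the second Psmb8 probe set, on MOE430B, was highest in replicate 2. With arrays centred on their medians, Psmb8 and Psmb10 were highest in replicate 2, while all 3 stayed lowest in replicate 3. The fold of replicate 1 over replicate 3 was 1.39 for Psmb8, 2.34 for Psmb9 and 1.72 for Psmb10, against a median of 1.01 over the 5094 genes above the limit on MOE430A, whose 5th to 95th percentiles ran from 0.707 to 1.43. On the same chip it was 0.967 for Psmb5, 0.977 for Psmb6 and 0.970 for Psmb7. In interferon signalling and antigen presentation, 5 of 11 measured genes had the same order, with folds of 1.87 for the peptide transporter Tap1, 1.40 for the class I light chain B2m, 1.80 for the receptor Ifngr1 and 1.58 for the kinase Jak2. The fifth, the class I regulator Nlrc5, was read on MOE430B, where the limit was also highest in replicate 1, and was not above it. Others did not, and the fold was 0.867 for the interferon-induced factor Irf1 and 0.947 for Tap2, the partner of Tap1.

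Blood cells carry immunoproteasome, so their markers were read beside it. Of 10 haematopoietic and macrophage markers, 5 were above the limit (Csf1r, Adgre1, Laptm5, Cd14 and Lyz2), where 36.1% of all measured genes were. The pan-leukocyte marker Ptprc was not, at 519, 881 and 485, and Itgam was lowest, at 19.8, 48.8 and 194. The summed signal of the list was 12830 in replicate 1, 17092 in replicate 2 and 17350 in replicate 3. Of the 10 markers 0 had the order of Psmb8, against 15.3% of all measured genes. The part of such cells in the immunoproteasome signal was not tested, and in this bulk RNA fewer cells of a type and less RNA per cell cannot be told apart.

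**Figure D3:**
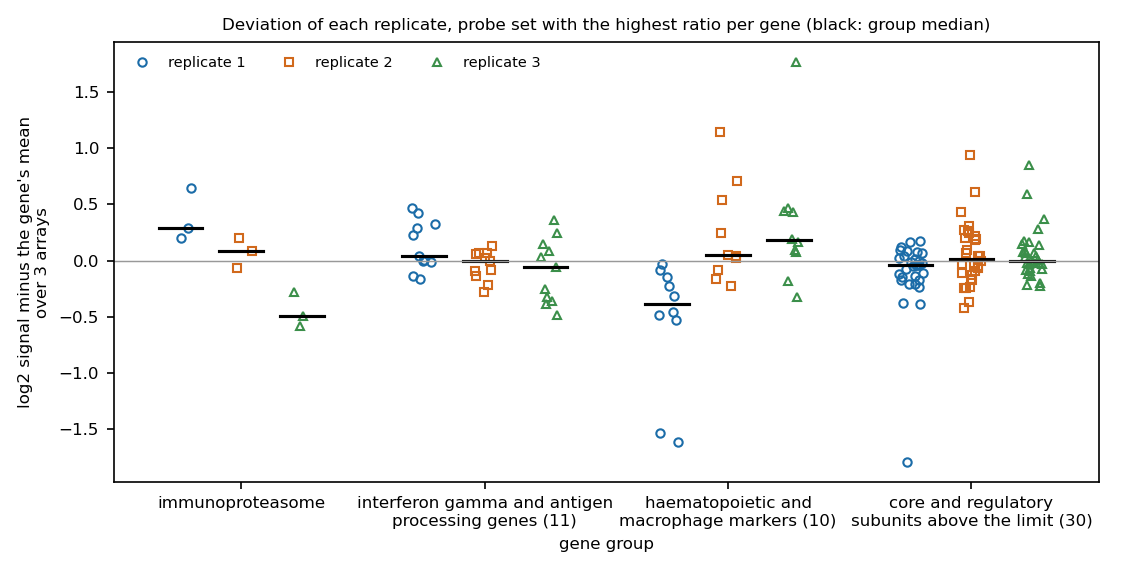
Log2 signal of each replicate minus the mean of the 3 for the best probe set of each gene, in 4 gene groups; each symbol is 1 gene and black bars are group medians. The inducible subunits have medians of 0.29, 0.08 and -0.49 in replicates 1, 2 and 3. Those of the 11 interferon and antigen processing genes are 0.04, -0.001 and -0.05, and those of the haematopoietic and macrophage markers -0.39, 0.05 and 0.18. The lowest point of the core and regulatory genes is Psmc4 in replicate 1.

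All 6 ATPases of the regulatory particle were above the limit. Psmc2 read 45912, 61616 and 52896 by an _x_at probe set, and 8905, 9831 and 10744 by a probe set without that ending. Psmc6 followed with 8529, 9606 and 8817. At each gene's probe set with the highest ratio, the lowest was that of Psmc1, with 1465, 1585 and 1817. Its log2 ratio was 1.00 ± 0.12 (SE, limma adjusted p = 0.000163), and the other Psmc1 probe set, an _x_at one, had a ratio of 0.239.

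Psmc4 had the highest coefficient of variation of the 45 genes, 68.0%. Its _a_at probe set read 536 in replicate 1, below the limit, but 3543 and 3336 in replicates 2 and 3. Its other probe set read 1213, 835 and 1297, above the limit in each replicate, and the call of the gene rests on it. There the ratio was 1.36, against 2.00 for Psmc1. The probe sets of Psmc4 disagree about replicate 1, which the first reads far the lowest and the second reads between the others. Psmc3 and Psmc5 had ratios of 3.73 and 5.27.

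Of the 11 non-ATPase subunits 10 were above the limit, with a median ratio of 6.13. Psmd11, a scaffold subunit of the lid, read 25531, 23585 and 23671 by its _s_at probe set. Psmd14, the deubiquitinase that removes ubiquitin chains from substrates, read 14646, 15156 and 14524. Both varied little between replicates, and Psmd14 had a coefficient of variation of 2.27%. Psmd1 and Psmd2, the large scaffold subunits of the base, read 7953.5 to 8610.5 and 11823 to 14562, and Psmd4, a ubiquitin receptor, had a ratio of 5.32. Psmd3, Psmd6, Psmd12 and Psmd13 lay between 4.19 and 6.21.

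The lowest non-ATPase ratios belonged to Psmd8 and Psmd7. Psmd8, a lid subunit, read 1400.5, 1087 and 1805, a log2 ratio of 0.79 ± 0.15 (SE, limma adjusted p = 0.00294). Psmd7, which pairs with Psmd14 in the lid, read 771, 624 and 716 at its best probe set, 0.868 of the limit, and its other 2 probe sets read lower. The signal of Psmd7 was thus not above the limit on any array although that of its partner was 17.7 to 19.3 times the limit. A probe set below the limit gives only a bound and does not show that the transcript is absent.

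The base chaperones Psmd5, Psmd9 and Psmd10 hold parts of the regulatory particle during assembly and leave the finished complex. All 3 were above the limit, where the share over all genes, weighted to their numbers of probe sets, was 34.4%. Psmd5 read 3219.7, 3952 and 4395, and Psmd10 read 1297, 1305 and 1609. Psmd9 lay just above the limit, at 1002, 977 and 979, with the lowest coefficient of variation of the 45 genes at 1.42%.

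Each of the 3 activators measured by a probe set of their own was above the limit. Weighted to their numbers of probe sets, the share over all genes was 46.7%. Psme1, which forms the interferon-inducible activator ring together with Psme2, read 2635, 2976 and 2855 (limma adjusted p = 1.34e-06). Psme3, a nuclear activator, read 1442, 1346 and 1465 (limma adjusted p = 0.000511). Psme4, the activator linked to histone degradation, read 2832, 2569 and 2351 by an _s_at probe set (limma adjusted p = 2.78e-06). At these probe sets the ratios ran from 1.75 to 3.49, with a coefficient of variation of at most 9.34%. Of the 10 activator probe sets 3 were above the limit, against 26.3% of all probe sets. Psme3 passed by 1 of 3 and Psme4 by 1 of 6. None of their others passed on all 3 arrays, and the lowest had a ratio of 0.067. Psme2 shares its only probe set with Psme2b and was not counted.

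The inhibitor Psmf1, which binds the ends of the core particle, was not above the limit. Its best probe set read 1371, 932 and 630.5, above the limit in replicates 1 and 2 and below it in replicate 3, with a log2 ratio of 0.20 ± 0.22 (SE, limma adjusted p = 0.702). Its other 3 probe sets stayed below the limit on every array. The symbol rule also matched 2 genes that encode no subunit. Psme3ip1, which encodes a protein that binds Psme3, was above at 1358, 1559 and 1605, and Psmc3ip, a factor of meiotic recombination, was not, at 692, 490.0 and 676.

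Probe sets of the same gene often disagreed. Of the 98 probe sets 56 were above the limit, against 26.3% of all. Among the 26 proteasome genes with at least 2 probe sets, all were above for 6 (8.52% of all such genes), some for 17 and none for 3. Psmd11 shows the range: of its 8 probe sets 4 were above, with ratios of at least 1.05, and 4 were not, with ratios of 0.076 to 0.503. On MOE430A, where 35.6% of all probe sets were above, shared-sequence probe sets (IDs with the ending _a_at, _s_at or _x_at, which can bind more than 1 transcript) were above for 24 of 31 (44.3% of all of that kind), and the others for 29 of 49 (31.7% of all). The ending _a_at marks probes for several transcripts of the same gene, while those of _s_at and _x_at may also match other genes. For 11 genes only such shared-sequence probe sets were above: Psma3, Psma5, Psmb5, Psmb8, Psmc6, Psmd4, Psmd10, Psmd12, Psmd13, Psmd14 and Psme4. All of these but Psme4 passed by an _a_at probe set. On MOE430B 3 of 18 probe sets were above (13.5% of all), and these are the 3 also present on MOE430A. None of the other 15 exceeded 0.778 of its limit on any array.

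**Figure D4:**
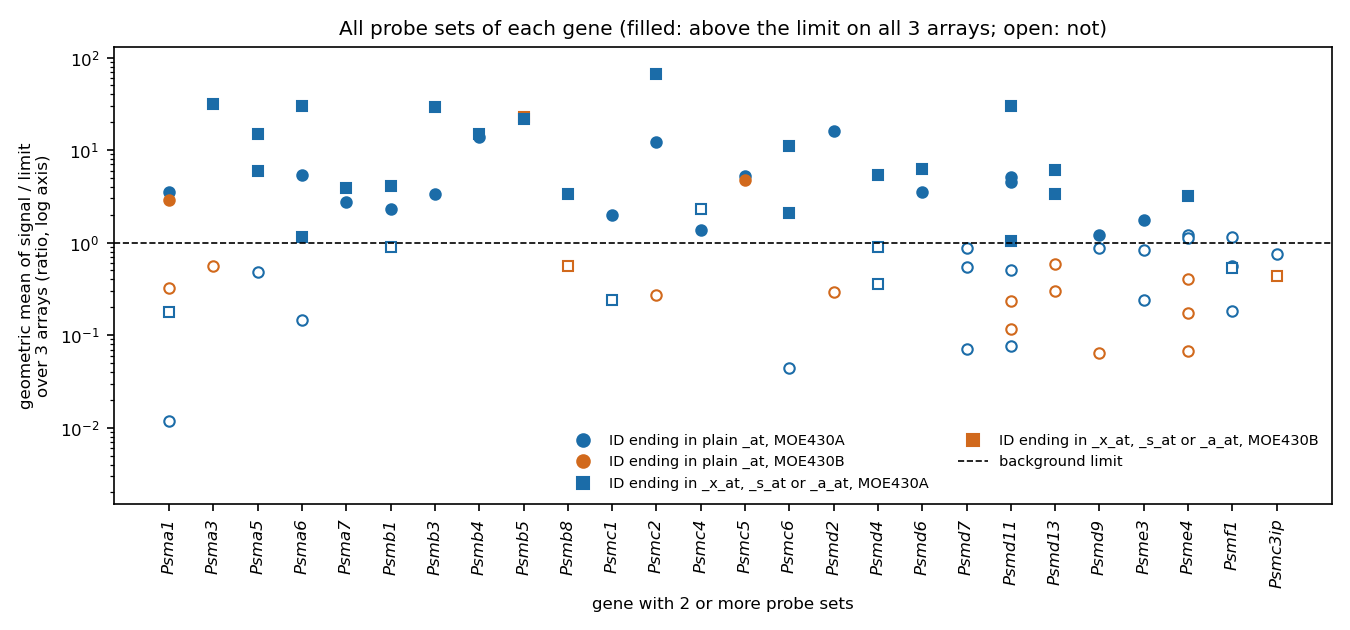
Geometric mean ratio of signal to background limit (log axis) for every probe set of the 26 proteasome genes with at least 2. Squares are shared-sequence probe sets and circles the rest, blue marks MOE430A and orange MOE430B, and filled symbols are above the limit on all 3 arrays; the 8 of Psmd11 spread over both sides of the dashed limit.

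Between replicates the proteasome genes as a whole shifted little. On MOE430A, over 57 probe sets with a mean above the limit, the median log2 deviation from the probe set mean was -0.012, -0.013 and 0.024 in replicates 1, 2 and 3, against 0.019, -0.023 and 0.013 over all such probe sets. The median SD of log2 signal was 0.20 for the proteasome probe sets and 0.20 for all. Of the 9 ATPase probe sets, 6 were lowest and 0 highest in replicate 1, against 29.1% lowest and 34.7% highest over all, and 1 of 10 core beta probe sets was highest there; these positions were not tested. Over the best probe set of each gene above the limit, the median coefficient of variation was 11.9% for the 39 proteasome genes, against 13.3% for all such genes.

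The replicates were tested with limma's F-test across both chips, for genes that both chips read above their mean limit. Of 614 such genes 9 were called (1.47%), and 64 had an unadjusted p under 0.05. Only Psma1, Psmb5 and Psmc5 could be tested among the proteasome genes, and 0 were called, with limma adjusted p of 0.772, 0.986 and 0.273. Psmc5 had an unadjusted p of 0.0155. Its probe set was highest in replicate 3 on MOE430A but in replicate 1 on MOE430B, so the chips did not give the same order.

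These 3 genes have the same probe set on both chips and show how far the chip scales differ. Psmb5 read 69861, 58346 and 69483 on MOE430B, against 16623, 18797 and 17188 on MOE430A, a log2 difference of 1.91 ± 0.18 (SE, limma adjusted p = 6.07e-06). Psma1 read 10111.5, 7103 and 8090.3 on MOE430B, against 3245, 2445 and 3014 on MOE430A (log2 difference 1.53 ± 0.20, SE, limma adjusted p = 2.71e-05). Psmc5 read 20286, 10549 and 11891 on MOE430B, against 3776, 3173 and 6421 on MOE430A (log2 difference 1.68 ± 0.31, SE, limma adjusted p = 0.000336). MOE430B was higher for all 3, as for all 100 shared probe sets (100% called), whose median difference was 1.86. The authors' scaling gave both chips the same trimmed mean of 1500 to 1501, so signals of the chips cannot be set side by side, and after centring arrays on these shared probe sets 0 were called by limma, with 10 at an unadjusted p under 0.05. On MOE430B all 3 genes were highest in replicate 1, as were 49.6% of the 2664 probe sets above the mean limit there (32.2% of all 14661), and per the file headers that array is of another chip lot than those of replicates 2 and 3; the part of the lot was not tested.

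**Figure D5:**
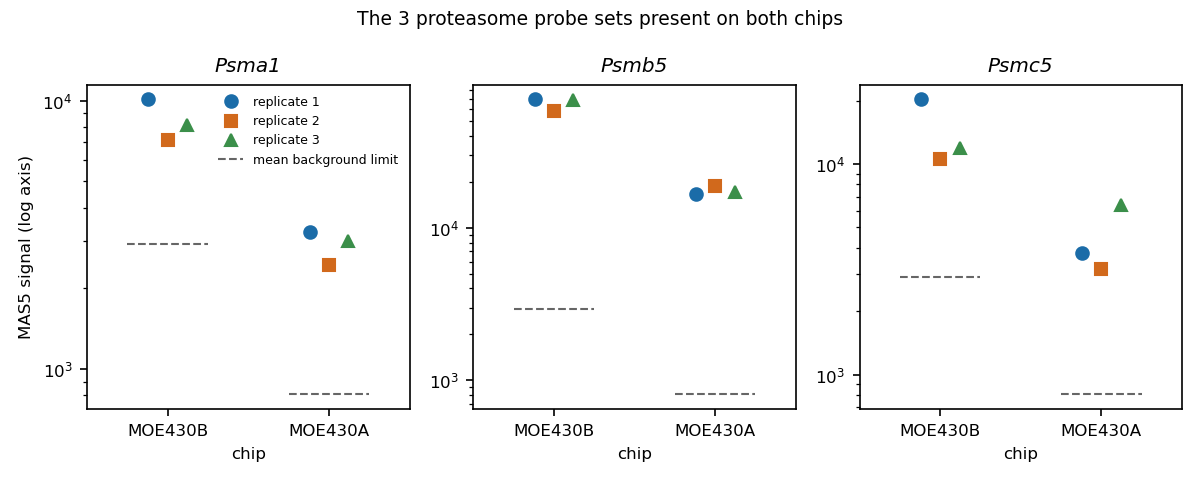
MAS5 signals (log axis) of the probe sets of Psmb5, Psma1 and Psmc5 that are present on both chips, with MOE430B left of MOE430A, 1 point per replicate and the mean background limit dashed. Every MOE430B value lies above the MOE430A values of the same probe set.

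Genes that build, regulate and serve the proteasome were read with the same limit. Nfe2l1, the transcription factor that raises proteasome genes when the protease is impaired, read 3122, 2635 and 2925. Nfe2l2, which acts through the antioxidant response element, read 10969, 11274 and 15127. With them, Vcp, Ngly1, Mafg, Mafk and Keap1 were above, 7 of 7 measured, and Ddi2 was not analysed here. Of the assembly factors of the core 3 of 5 were above, where 36.1% of all genes were: Pomp, at 3824, 3841 and 3763, Psmg1, at 1668, 1392 and 1013.5, and Psmg4. Psmg2 and Psmg3 were not, and Psmg2 read 2761, 3163 and 3038 on MOE430B, near its limit.

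Of 6 further subunits and bound factors 5 were above, where 36.1% of all genes were. Sem1, a small lid subunit, read 13541.5, 17505 and 14084, and the deubiquitinase Usp14 read 8218, 6641 and 9402. Ube3c, Ubqln1 and Rad23b were also above, and the deubiquitinase Uchl5 was not, at 801, 920.0 and 1402. Among ubiquitin genes only the activating enzyme Uba6 was measured, at 10271, 7167 and 6852 on MOE430B, above its limit. Of the interferon list 9 of 11 were above, among them Ifngr1, Ifngr2 and Jak1, and Nlrc5 and Erap1 were not.

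As Nfe2l1 and Nfe2l2 act through the antioxidant response element, its letters TGACNNNGC were searched on both strands in the 250 bases before the RefSeq start (GRCm38.p6), for the 38 proteasome genes with a promoter in the table. They were present for 5 genes (13.2%), against 11.5% of 27025 genes. The gamma-activated site TTCNNNGAA, bound by the interferon gamma signal, was present for 1 (2.63%), Psmb8, against 8.13% of all. The interferon-stimulated response element was present for 3 (7.89%, against 3.46%), none of them an inducible subunit, and CCAAT for 16 (42.1%, against 37.5%). Matches on the gene's own strand are shown for the catalytic genes Psmb5 and Psmb6, for the chaperone Psmd9 and for Psmb8, with the matched letters in capitals; other letters give context only.
Psmb5, chr14:54618023-54618052, minus strand: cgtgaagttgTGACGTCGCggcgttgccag
Psmb6, chr11:70525327-70525356, plus strand: acagaggcggactaaagagagTGACGGAGC
Psmd9, chr5:123228149-123228178, plus strand: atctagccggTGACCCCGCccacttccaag
Psmb8, chr17:34198088-34198117, plus strand: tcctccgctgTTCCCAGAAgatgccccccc
The matches begin 47 bases before the start in Psmb5, 9 in Psmb6, 31 in Psmd9 and 97 in Psmb8. Psmc6 and Psmd12 hold TGACNNNGC on the opposite strand. A match shows only that these letters are in this window, and no binding was measured.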

How the data were processed

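Total RNA of 1 group was read on 6 arrays. The authors deposited an intensity per probe set, not on a log scale, made with MAS5 per the submitters' processing notes; its version is not given in the sources used here. The number of arrays limits the precision. Proteasome genes were chosen by symbol from the probe annotation (updated through RefSeq, GRCm38.p6), and members and lists were chosen with earlier results of these data known. Only probe sets annotated to a single gene entered. The background limit was the 95th percentile of 152 reference probe sets on MOE430A and 43 on MOE430B (testis kinases, placental prolactins, sperm nuclear proteins, gamma crystallins, defensins, keratin-associated proteins, and taste, vomeronasal and odorant receptors), and 2.63% and 4.65% of them passed it on all 3 arrays.

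Tests used limma 3.58.1 in R 4.3.3 on log2 signals or log2 ratios, with Benjamini-Hochberg adjustment over all features and a threshold of 0.05, and were tested on simulated data. The limit's own error is not in the test. Counts and figures were made with matplotlib 3.10.9, scipy 1.17.1, pandas 2.3.3 and numpy 2.4.6 under Python 3.11.15. The interferon-stimulated response element was searched as GAAA, NN and GAAA in a row. Every matched gene is named, and values on every array are given for catalytic, inducible, activator and inhibitor genes, genes not above the limit, and the 2 highest and 2 lowest ratios of the alpha, beta, ATPase and non-ATPase genes. From partner lists, the first 3 genes and those that small counts single out are named. Other genes given with array values were chosen after their values were seen. Alternatives changed the limit, the probe sets per gene, the chip, the scaling, the filter, the replicates left out and the replicate block.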

Additional observations from a re-analysis of the deposited data

Results flagged for a closer look

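The probe set annotated to both Psme2b and Psme2 lies outside the comparisons, because 2 genes share it, and gave a signal above the background limit. Psme2 encodes the partner of Psme1 in the interferon-inducible activator. It read 2987, 2873 and 2464 in replicates 1, 2 and 3 on MOE430A, a mean of 2775 ± 275 (SD, n = 3), at 3.00 to 3.67 times the limit. Which of the 2 genes gave the signal cannot be told apart.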

How the results depend on the processing

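The count of 39 proteasome genes above the limit became 22 when every probe set of a gene had to pass (15.3% of all genes). It was 36 with the 99th percentile (without Psmc4, Psmd8 and Psmd9; all genes 27.0%), 42 with the array median as limit (with Psmc3ip, Psmd7 and Psmf1; all genes 53.8%), 38 with receptor families alone or with 1 probe set per gene (without Psmc4 in both, all genes 34.2% and 36.1%), 28 of 39 measured genes without shared-sequence probe sets (all genes 30.5%), and 39 of 44 on MOE430A alone (all genes 42.7%). Leaving out 1 replicate gave 39 to 40, with Psmf1 passing without replicate 3. Over all these alternatives 24 of the 45 genes kept their call wherever measured, and 21 did not. By limma, 48 probe sets passed with the 99th percentile, 52 without the intensity trend, and 52 to 53 with a replicate left out, against 52. The replicate test called 0 proteasome genes under every alternative run, also with any replicate left out; over all 614 genes it called 9 as deposited, 4 with median centring, 0 with quantile normalization and 7, 0 and 3 without replicates 1, 2 and 3, and 0 of 3807 genes with no filter. The median deviation in MOE430B replicate 2 was 0.30 over 18 probe sets with no filter, against -0.23 over the 3 above the mean limit, so it rests on other probe sets. Centred on the shared probe sets, the chip differences turned to -0.012 for Psmb5, -0.38 for Psma1 and -0.24 for Psmc5 (limma adjusted p = 0.968, 0.451 and 0.862), since centring removes the shift common to all 100. With the replicate number as a block they were 1.91, 1.53 and 1.68 (limma adjusted p = 6.39e-10, 1.72e-08 and 5.73e-08), and the block changed no call. Deviations of the same replicate on both chips correlated at -0.015, 0.44 and 0.10 over shared probe sets, so a pairing by number was not borne out in every replicate, while the replicate test takes the number as shared by both chips.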
